A study of Mus musculus with 8 samples.

Results

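The 10 genes described here encode the MHC class II presentation machinery, and they were taken by symbol from the 54532 genes of the deposited count table: the class II chains H2-Aa, H2-Ab1 and H2-Eb1, the invariant chain Cd74, the transactivator Ciita, the DM genes H2-DMa, H2-DMb1 and H2-DMb2, and the DO genes H2-Oa and H2-Ob. Total RNA was taken from the stromal vascular fraction (SVF) of 1 gonadal fat pad per mouse, which is the pellet of a collagenase digest, freed of floating adipocytes and of red blood cells. All 8 animals were male C57BL/6J mice that started a high-fat diet (60% of calories from fat) at 6 weeks of age, stayed on it for 12 weeks, were allotted to the groups by a glucose tolerance test and were then moved to a normal chow diet (16% of calories from fat). From that switch, and for 6 weeks until week 18, an antibody was injected at 2 mg/kg every 2 weeks. Mice 1, 2, 6 and 9 received a control Ab of matched isotype, and mice 5, 7, 8 and 10 received the anti-BAFF Ab (clone Sandy-2), which gives 4 libraries per group. BAFF is a cytokine that mature B cells need to survive, and the comparison asks what its neutralization does to class II transcripts in a tissue that holds B cells beside other presenting cells.

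MHC class II molecules are pairs of an alpha and a beta chain that display peptides from endosomes to CD4+ T cells. The chains assemble with the invariant chain, which blocks the peptide groove until endosomal proteases remove it, and DM then exchanges the remaining fragment for peptides. DO binds DM and restrains it, and whereas the chains, the invariant chain and DM are made by B cells, dendritic cells and macrophages alike, DO is found mainly in B cells and in some dendritic cells. CIITA does not bind DNA itself. It docks on factors that sit on the X and Y boxes of class II promoters, and its presence sets which cells transcribe these genes. In C57BL/6 mice the I-E alpha gene is defective, so that H2-Eb1 is transcribed without a partner chain.

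Promoter stretches are shown because the X and Y boxes are the control element that class II genes are known to share. RefSeq's GRCm38.p6 promoter table (250 bases before to 50 after each start site) had entries for 7 of the 10 members, and the H2-DMa entries lay 9664 bases or more from the deposited gene start and were set aside. Each of the other 6 promoters held the Y box core TGATTGG on the sense strand, between 45 and 92 bases upstream of the start site. On either strand, this core occurred in 7.80% of 32817 promoters of the same length. Within 20 to 80 bases before the Y core, the best match to the X box core CTAGCAAC lay 31 to 34 bases before it in all 6. It was exact in H2-Eb1 and H2-Ob, had 1 mismatch in H2-Aa, H2-DMb1 and H2-Oa and had 2 mismatches in H2-DMb2. An exact CTAGCAAC on either strand was present in 1.32% of all promoters. The pair of an X match with at most 1 mismatch and a Y core 20 to 80 bases after it on the same strand, which 5 of the 6 hold, was found in 0.213% of them. The letters and the spacing were chosen with these sequences in view, and a match is a description of the window, not proof of a bound factor. In the stretches below, 5′ to 3′ on the gene's strand, capitals mark the X match first and the Y core second.
H2-Aa (chr17:34287855-34287943, minus strand): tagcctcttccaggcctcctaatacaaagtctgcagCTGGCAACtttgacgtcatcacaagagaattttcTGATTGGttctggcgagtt
H2-Eb1 (chr17:34305736-34305824, plus strand): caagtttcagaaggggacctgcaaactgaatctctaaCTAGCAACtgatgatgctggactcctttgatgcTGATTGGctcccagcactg
H2-DMb1 (chr17:34153058-34153146, plus strand): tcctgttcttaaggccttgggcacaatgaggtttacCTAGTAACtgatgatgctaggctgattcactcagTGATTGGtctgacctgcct
H2-DMb2 (chr17:34145087-34145175, plus strand): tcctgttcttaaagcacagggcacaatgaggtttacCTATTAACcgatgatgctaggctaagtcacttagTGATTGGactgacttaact
H2-Oa (chr17:34092264-34092352, plus strand): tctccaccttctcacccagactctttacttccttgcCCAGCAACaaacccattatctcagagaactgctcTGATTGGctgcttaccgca
H2-Ob (chr17:34238776-34238864, plus strand): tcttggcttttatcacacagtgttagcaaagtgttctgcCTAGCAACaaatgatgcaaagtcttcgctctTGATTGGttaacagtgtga
The promoters of H2-DMb1 and H2-DMb2, neighbouring copies of the DM beta gene, were identical at 209 of 246 aligned bases (85.0%). The RefSeq start of H2-DMb2 used here is 1942 bases from the start of the gene in the deposited table, while the other 5 starts differ by 119 bases or less.

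**Figure D1:**
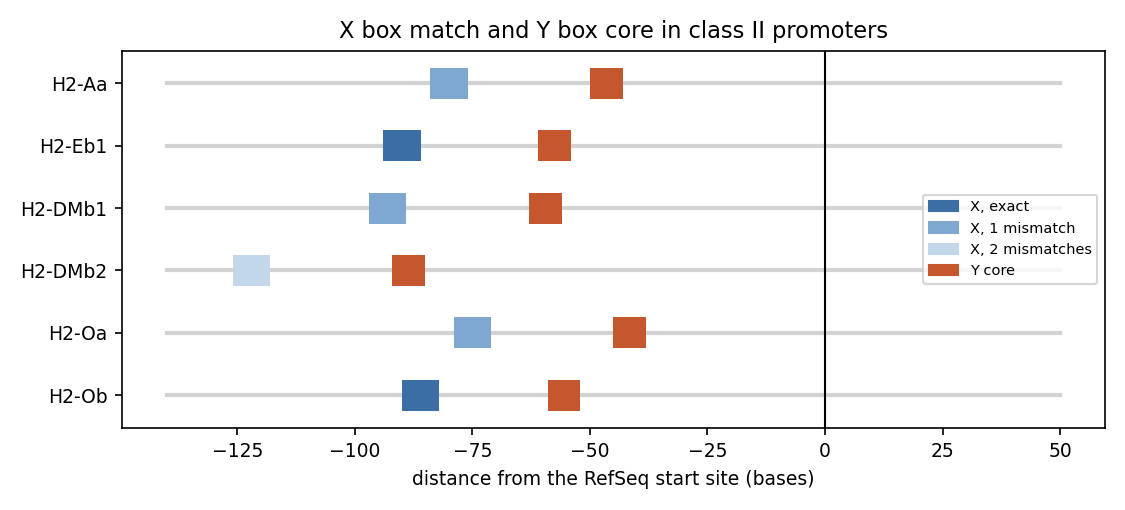
Position of the X box match (blue, paler with more mismatches) and of the Y box core (orange) in 6 class II promoters, with the distance in bases from the RefSeq start site on the horizontal axis. The distance from X to Y is 31 to 34 bases in every promoter, and the pair lies farthest from the start in H2-DMb2.

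The libraries held 13562340 to 18548024 counts, of which the 10 members took 0.631% to 0.910%, or 108975 to 146855 counts per mouse. All 10 members passed the filter on low counts and were among the 15963 genes tested. Levels are given as CPM (each count divided by its library's size, here with TMM factors that correct for a few abundant genes), and levels of different genes are compared only as FPKM (CPM per 1000 bases of deposited gene length). Markers of the cell types of a fat pad were present: summed over 4 progenitor and fibroblast genes the level was 2202 to 3484 CPM, and over 4 endothelial genes it was 529 to 960.1 CPM. Adipocyte markers summed to 32.4 to 53.1 CPM and T cell markers to 18.9 to 39.5 CPM. Epididymis genes ranged from 16.9 to 1705 CPM (summed over 6 genes) and were highest in control Ab-treated mouse 2 and anti-BAFF Ab-treated mouse 7, and the neutrophil genes of anti-BAFF Ab-treated mouse 5 summed to 157 CPM against 27.7 to 39.1 CPM in the other 7 mice.

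Class II chains were among the abundant transcripts of the SVF, and their regulators were scarce. In the control Ab-treated mice, the invariant chain Cd74 (chromosome 18, 60803848 to 60812646) had an FPKM level of 2612 ± 240.1 (SD, n = 4). H2-Eb1 followed at 1177 ± 92.3 FPKM, H2-Ab1 at 865 ± 74.2 FPKM and H2-Aa at 807 ± 77.7 FPKM (SD, n = 4), and the last 2 lay within each other's spread. The FPKM ratio of Cd74 to H2-Eb1 was 2.22 ± 0.0493 (SD, n = 4 control Ab-treated mice), so both moved almost in step from mouse to mouse. DM was an order of magnitude lower, with H2-DMb1 at 88.7 ± 7.58 FPKM and H2-DMa at 61.5 ± 3.93 FPKM (SD, n = 4). The second DM beta gene, H2-DMb2, stood at only 6.44 ± 1.41 FPKM (SD, n = 4), and H2-DMb1 exceeded it 14.2 ± 2.65 times per length (SD, n = 4). Ciita had a level of 3.82 ± 1.08 FPKM and H2-Ob of 3.54 ± 0.583 FPKM (SD, n = 4), which do not differ beyond their spread. H2-Oa was the lowest member at 1.80 ± 0.364 FPKM (SD, n = 4), and H2-Ob exceeded it 2.02 ± 0.494 times per length (SD, n = 4). The same order was found in the anti-BAFF Ab-treated mice, where Cd74 had 2406 ± 326 FPKM and H2-Ob 2.46 ± 0.545 FPKM (SD, n = 4). H2-Oa rests on 24 to 47 counts per library, at which counting alone gives a coefficient of variation of 16.3% in the control Ab-treated mice, where 20.2% was observed. In the anti-BAFF Ab-treated mice counting alone gives 17.7%, where 34.8% was observed.

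With edgeR, 0 of the 10 members passed the threshold of 0.05 on the adjusted p (adjusted p = 1.00 for each), which that 0.0564% of all genes tested passed in the lower direction. Every member had a log2 fold change (anti-BAFF Ab over control Ab) below 0, from -0.64 to -0.11 with a median of -0.15, whereas 48.5% of all genes tested lay below 0 and their median was 0.004. At an unadjusted p of 0.05, 2 of the 10 were lower, H2-DMb2 and H2-Ob, and 0 were higher, beside 1.24% of all genes tested that were lower and 0.664% that were higher. DESeq2's Wald test, which tests the genes without the expression filter, also placed 0 of the 10 past an adjusted p of 0.05, where 0.253% of its genes were lower. Only H2-DMb2 had groups that did not overlap, which 0.952% of all genes tested showed in this direction and 0.526% in the other. In bulk RNA, fewer cells of a type and less RNA per cell cannot be told apart.

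**Figure D2:**
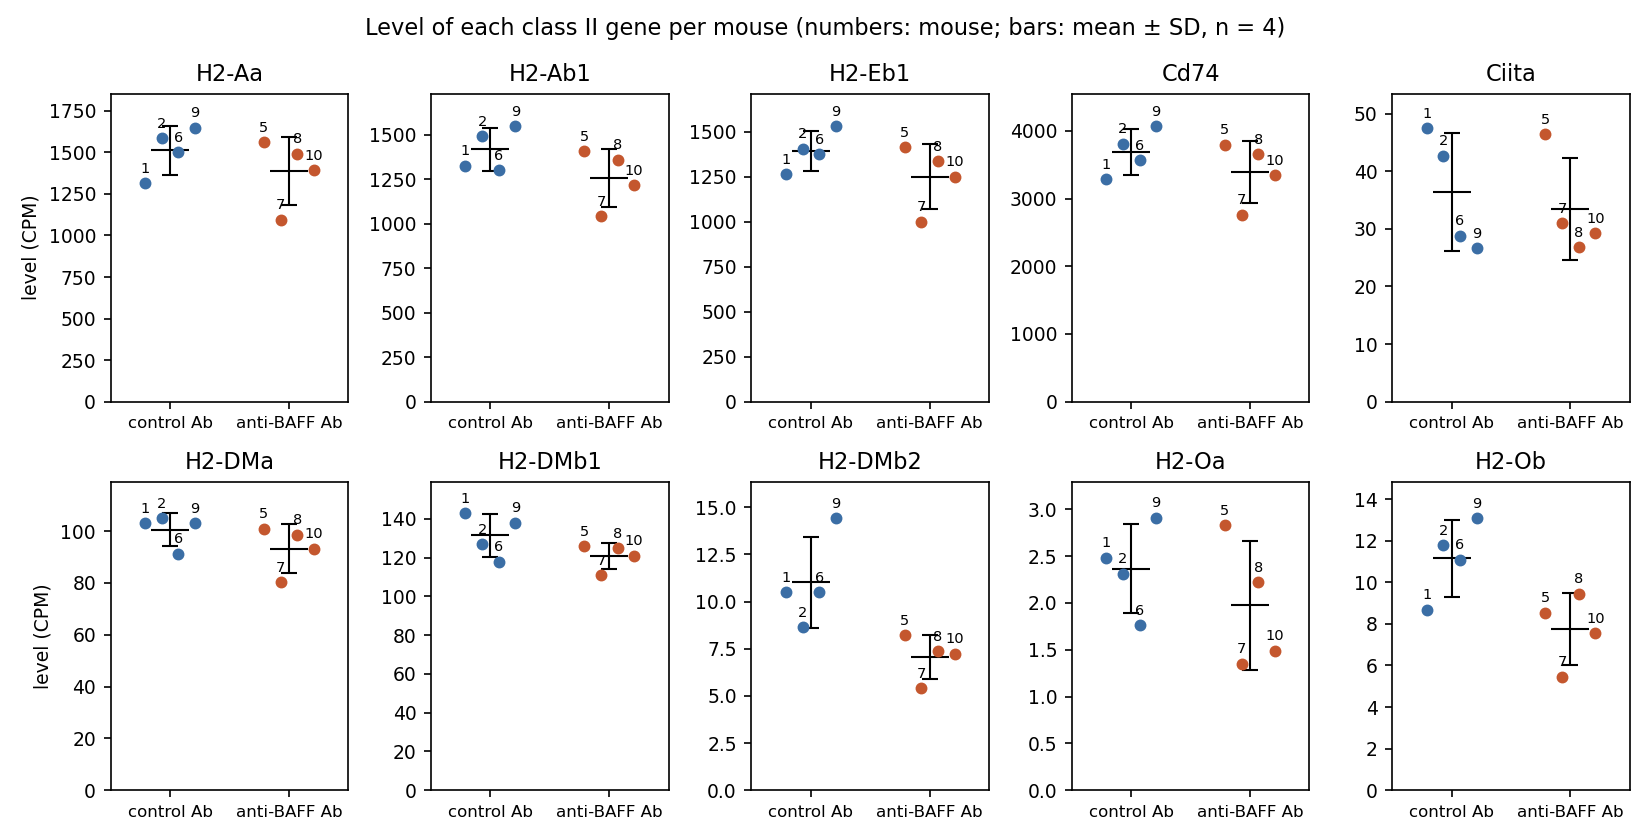
Level in CPM of each of the 10 class II genes in each mouse, with control Ab-treated mice in blue and anti-BAFF Ab-treated mice in orange, the mouse number beside each point and the mean ± SD of 4 mice in black. The groups overlap for 9 genes, H2-DMb2 is the exception, and anti-BAFF Ab-treated mouse 7 is lowest for 9 of 10.

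Cd74 and the 3 classical chain genes had the highest counts of the members. Cd74 led with 48719 or more per library, and the chain genes had 17752 or more. H2-Ab1 (chromosome 17, 34263209 to 34269418), the beta chain of I-A, was at 1326, 1491, 1301 and 1548 CPM in control Ab-treated mice 1, 2, 6 and 9 and at 1407, 1042, 1358 and 1216 CPM in anti-BAFF Ab-treated mice 5, 7, 8 and 10. The groups overlapped, with only anti-BAFF Ab-treated mice 7 and 10 below all control Ab-treated mice. The log2 fold change of H2-Ab1 was -0.17, with a 95% interval from -0.45 to 0.10. H2-Aa (chromosome 17, 34282744 to 34287827), its alpha chain partner, had a CPM of 1313, 1585, 1502 and 1648 with control Ab and of 1561, 1096, 1491 and 1394 with anti-BAFF Ab, in the same order of mice. Except in mouse 7 the values fell inside the control range, and the log2 fold change was -0.13 (95% interval -0.42 to 0.17). The unpaired beta chain H2-Eb1 (chromosome 17, 34305877 to 34316199) was at 1265, 1405, 1375 and 1530.5 CPM against 1413, 999.5, 1336 and 1251 CPM, with a log2 fold change of -0.16 (95% interval -0.44 to 0.12). Cd74 was at 3282, 3813, 3564 and 4073 CPM with control Ab and at 3798, 2763, 3659 and 3347 CPM with anti-BAFF Ab. For these 4 genes the fitted level in the anti-BAFF Ab-treated mice was between 88.6% (H2-Ab1) and 92.1% (Cd74) of that in the control Ab-treated mice, and none of the intervals reaches a log2 fold change of -0.5. Without anti-BAFF Ab-treated mouse 7, the log2 fold change was -0.11 for H2-Ab1, -0.08 for H2-Eb1, -0.05 for Cd74 and -0.04 for H2-Aa.

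Ciita (chromosome 16, 10480059 to 10528418) varied more between mice than the shared chain genes. Its level was 47.5, 42.7, 28.8 and 26.6 CPM in control Ab-treated mice 1, 2, 6 and 9 and 46.4, 31.0, 26.8 and 29.3 CPM in anti-BAFF Ab-treated mice 5, 7, 8 and 10. Mice 1, 2 and 5 were thus high and the other 5 low, across both groups, and the log2 fold change was -0.13 (SE 0.23, 95% interval -0.64 to 0.39). The coefficient of variation among control Ab-treated mice was 28.2% for Ciita, against 7.84% to 9.63% for the 4 shared chain genes, and among anti-BAFF Ab-treated mice it was 26.5% against 13.0% to 14.8%. H2-Oa varied about as much, with 20.2% and 34.8%. Ciita was highest in control Ab-treated mouse 1, whose 4 chain genes summed to 7186 CPM, the lowest of its group. It was lowest in control Ab-treated mouse 9, whose chain genes summed to 8798 CPM, the highest of all 8 mice. The other mice with high Ciita had high chain sums (8294 CPM for mouse 2 of the control Ab group, 8179 CPM for mouse 5 of the anti-BAFF Ab group), so the order of the mice by Ciita was not that by the chains in either direction. Marchf1, a ubiquitin ligase that removes class II from the cell surface, was also highest in mouse 1 at 39.0 CPM. It was lowest in control Ab-treated mouse 6 at 15.9 CPM and stood at 20.5 CPM in mouse 9. The summed level of the 12 endosomal genes described below, Marchf1 among them, was likewise highest in mouse 1 (18529 CPM). Dexi lies on the opposite strand and overlaps Ciita, with at most 260 counts in a library, and whether the counting used strand is not given in the sources used here.

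Of the DM genes, H2-DMb2 had the lowest fold change and was the only one whose groups did not overlap. H2-DMa (chromosome 17, 34135182 to 34139101), the alpha chain of the peptide editor, was at 103, 105, 91.3 and 103 CPM with control Ab and at 101, 80.2, 98.7 and 93.3 CPM with anti-BAFF Ab. H2-DMb1 (chromosome 17, 34153072 to 34160230), the main beta chain by level, was at 143, 127, 118 and 138 CPM and at 126, 111, 125 and 121 CPM. Both overlapped between the groups, with log2 fold changes of -0.11 (95% interval -0.32 to 0.09) and -0.12 (95% interval -0.31 to 0.07). H2-DMb2 (chromosome 17, 34143307 to 34151553) was at 10.5, 8.63, 10.5 and 14.4 CPM in control Ab-treated mice 1, 2, 6 and 9 and at 8.21, 5.41, 7.37 and 7.23 CPM in anti-BAFF Ab-treated mice 5, 7, 8 and 10. Every anti-BAFF Ab-treated mouse was below every control Ab-treated mouse, by a margin of 8.21 against 8.63 CPM at the closest. The log2 fold change was -0.64 (SE, standard error, 0.19, 95% interval -1.07 to -0.21, edgeR unadjusted p = 0.00787, adjusted p = 1.00). For each 1000 counts on H2-DMb1 there were 73.1, 68.0, 88.9 and 104 counts on H2-DMb2 in the control Ab-treated mice and 65.0, 48.7, 58.9 and 59.5 in the anti-BAFF Ab-treated ones. This ratio was formed after the values of the 2 genes were seen and is given without a test. H2-DMb1 and H2-DMb2 are close copies, reads may have been divided between them in counting, and the small count of H2-DMb2 (96 to 232 per library) is therefore the less certain of the pair.

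H2-Ob (chromosome 17, 34238903 to 34245907), the beta chain of DO, was at 8.68, 11.8, 11.1 and 13.1 CPM in control Ab-treated mice 1, 2, 6 and 9 and at 8.55, 5.46, 9.46 and 7.56 CPM in anti-BAFF Ab-treated mice 5, 7, 8 and 10. One control Ab-treated mouse (mouse 1) lay below the highest anti-BAFF Ab-treated mouse (mouse 8), so the groups overlapped by a single pair. On the log2 scale the fold change was -0.53 (SE 0.19, 95% interval -0.96 to -0.09, edgeR unadjusted p = 0.0234, adjusted p = 1.00), which puts the fitted level at 69.4% of control. Leaving out single mice took the edgeR unadjusted p of H2-Ob past 0.05 for control Ab-treated mouse 2 (0.054), control Ab-treated mouse 9 (0.0693) and anti-BAFF Ab-treated mouse 10 (0.052). H2-Oa (chromosome 17, 34092340 to 34095234), the alpha chain of DO, was at 2.48, 2.31, 1.76 and 2.91 CPM with control Ab and at 2.83, 1.35, 2.22 and 1.49 CPM with anti-BAFF Ab. The groups overlapped, with anti-BAFF Ab-treated mice 7 and 10 below all control Ab-treated mice. The log2 fold change of H2-Oa was -0.27 (SE 0.29, 95% interval -0.92 to 0.38), at 24 to 47 counts per library. A change of the size seen in H2-Ob lies inside that interval, and whether one could have been detected was not tested. The fold change of H2-Oa moved to -0.51 without anti-BAFF Ab-treated mouse 5, to -0.14 without mouse 7 and to -0.15 without mouse 10 of that group or mouse 9 of the control Ab group. Whether the 2 chains of DO differed from each other was not tested.

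The DO genes were set directly against the shared chains by the ratio of their counts within each mouse, which no scaling of the library affects. Per 1000 counts on H2-Aa, there were 6.62, 7.42, 7.41 and 7.93 counts on H2-Ob in control Ab-treated mice 1, 2, 6 and 9 and 5.48, 4.98, 6.34 and 5.42 in anti-BAFF Ab-treated mice 5, 7, 8 and 10. These groups did not overlap, and the log2 ratio differed by -0.40 (95% interval -0.63 to -0.18, exact permutation test, two-sided, p = 0.0286, adjusted p = 0.114 over 8 ratios). Against Cd74, H2-Ob had 3.02 ± 0.251 counts per 1000 in the control Ab group and 2.27 ± 0.249 in the anti-BAFF Ab group (SD, n = 4), again without overlap (difference -0.41, exact permutation test, two-sided, p = 0.0286, adjusted p = 0.114). Against H2-Ab1 and H2-Eb1 the differences of the log2 ratio were -0.36 (95% interval -0.66 to -0.06) and -0.37 (95% interval -0.63 to -0.11; exact permutation test, two-sided, p = 0.0571 and adjusted p = 0.114 for both), and mouse 1 of the control Ab group overlapped with mouse 8. With 4 mice against 4 the smallest p is 0.0286. Over 8 ratios, the 4 of H2-Ob could therefore not pass the adjustment unless a ratio of H2-Oa reached that p as well. The adjusted p could thus not fall under 0.05 for H2-Ob alone. The ratios of H2-Oa differed by -0.12 to -0.18 (exact permutation test, two-sided, adjusted p = 0.60 for each), and the 95% interval of the largest, that to Cd74, ran from -0.71 to 0.35. For H2-Ob, the 95% interval lay below 0 against all 4 chains, the unadjusted exact permutation p was under 0.05 against 2 of them and the adjusted p against 0, while for H2-Oa all 4 intervals included 0. The 4 ratios of a DO gene share the counts of that gene, so they are not independent of each other.

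**Figure D3:**
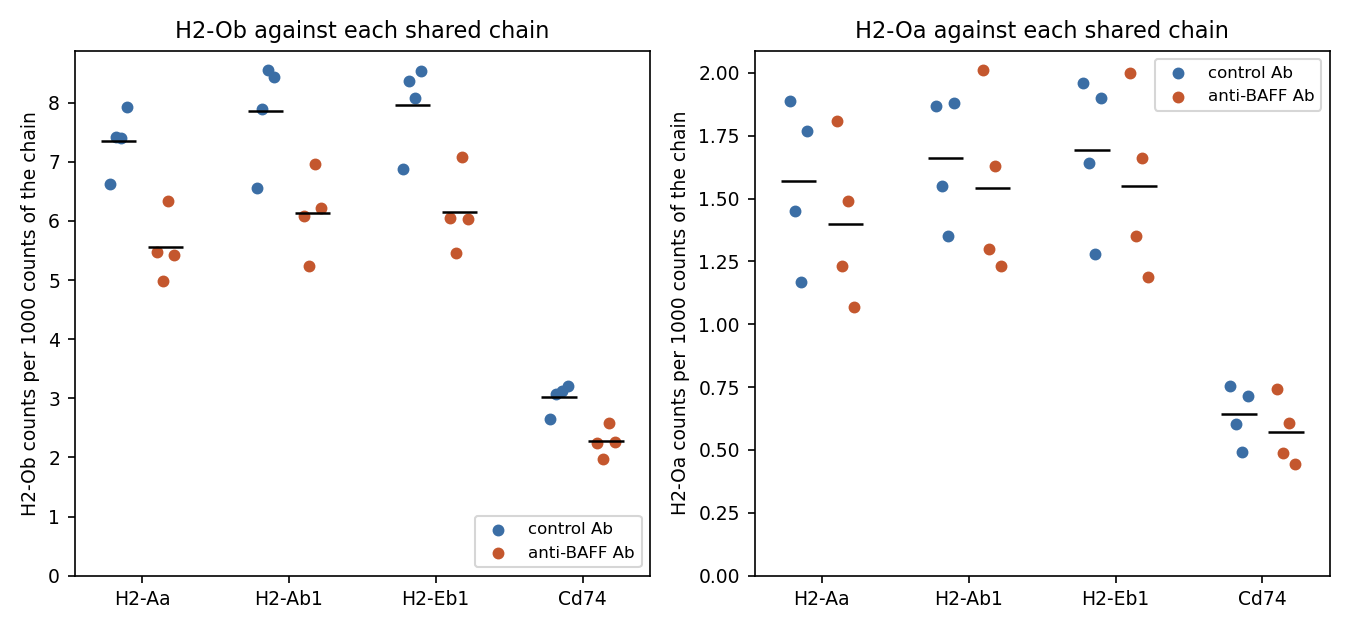
Counts on H2-Ob (left) and H2-Oa (right) per 1000 counts on each shared chain gene, one point per mouse with control Ab in blue and anti-BAFF Ab in orange and the mean of 4 mice as a line. H2-Ob separates the groups against H2-Aa and Cd74 and overlaps for 1 mouse of each group against H2-Ab1 and H2-Eb1, while H2-Oa overlaps throughout.

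Single mice stood out across the members. Anti-BAFF Ab-treated mouse 7 was the lowest of the 8 mice for 9 of 10 members, all but Ciita, and 9.41% of all genes tested were lowest there. Control Ab-treated mouse 9 was the highest for 7 of 10, beside 12.0% of all genes tested. Mouse 7 was also the mouse with the most epididymis genes (1705 CPM summed), though control Ab-treated mouse 2 had 1666 CPM and its chain genes summed to 8294 CPM, above the 7186 and 7742 CPM of mice 1 and 6. The part of epididymal RNA in these levels was not tested. With mice 2 and 7 both left out, the log2 fold change was -0.65 for H2-DMb2 and -0.38 for H2-Ob (edgeR unadjusted p = 0.00857 and 0.0935), and H2-DMb2 remained the only member without overlap.

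**Figure D4:**
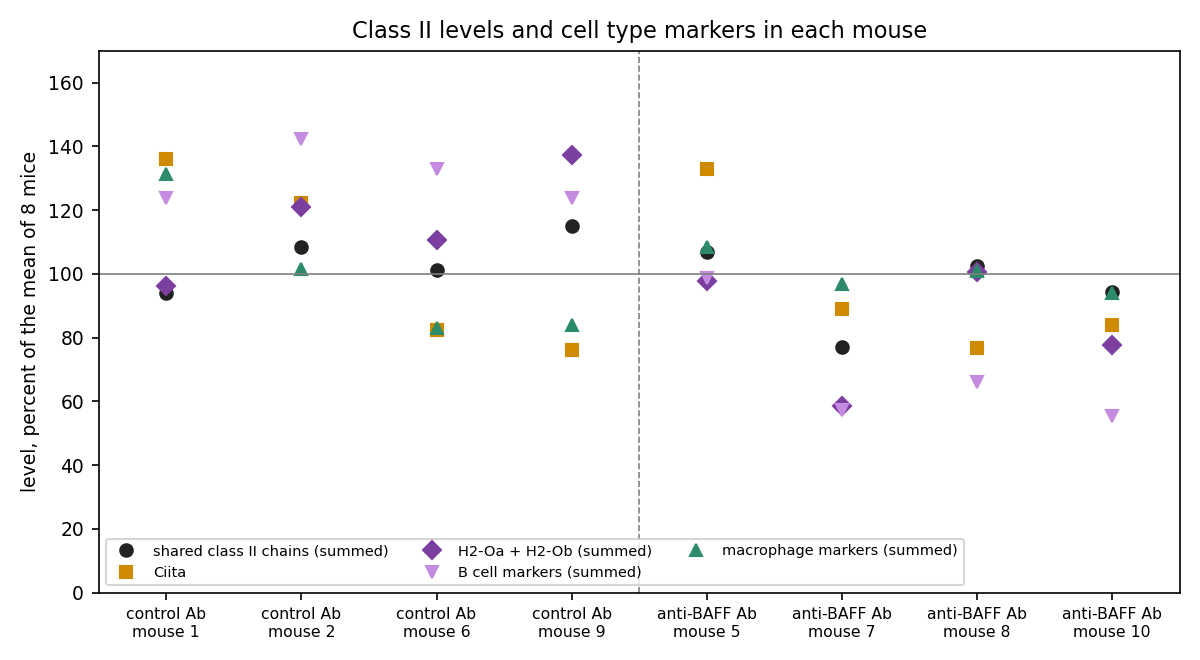
Summed level of the 4 shared chain genes, the DO genes, B cell markers and macrophage markers, and the level of Ciita, in each mouse as a percent of the mean of 8 mice. B cell markers are lower in all 4 anti-BAFF Ab-treated mice, the chain genes are lowest in mouse 7, and Ciita is high in mice 1, 2 and 5.

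Markers of the cells that carry class II did not move alike. Of 10 B cell markers, 10 had a log2 fold change below 0 (median -1.32), beside 48.5% of all genes tested. At an unadjusted p under 0.05, 9 were lower (1.24% of all genes tested), and 7 did not overlap between the groups (0.952%). At the adjusted threshold edgeR called 0 of them (0.0564% of all genes tested were lower there). Their summed level was 63.1 to 72.5 CPM in the control Ab-treated mice and 28.2 to 50.4 CPM in the anti-BAFF Ab-treated mice. Pax5, the factor that keeps B cell identity, was at 7.06 ± 1.06 CPM with control Ab and 2.44 ± 0.791 CPM with anti-BAFF Ab (SD, n = 4), and Cd79a, a signalling chain of the B cell receptor, at 10.6 ± 1.46 and 3.12 ± 1.51 CPM (SD, n = 4). For Cr2, a complement receptor of mature B cells, the log2 fold change was -2.65. The most abundant of the list was Cd22, an inhibitory receptor of B cells, with 17.5 ± 1.47 and 15.5 ± 3.52 CPM (SD, n = 4) and overlapping groups. The fold changes of H2-Ob and H2-DMb2 lay between those of the chain genes and the median of these markers, and the part of B cell number in them was not tested.

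Macrophage and dendritic cell markers had medians closer to 0 than B cell markers. The 10 macrophage markers had log2 fold changes from -0.12 to 0.19 (median 0.00), 0 of 10 had an unadjusted p under 0.05, and they summed to 8874 to 14050.3 CPM with control Ab and 10070.4 to 11609 CPM with anti-BAFF Ab. Control Ab-treated mouse 1 had the highest macrophage sum of the 8 mice and the lowest chain gene sum of its group. Of the 10 dendritic cell markers, 8 had a fold change below 0, beside 48.5% of all genes tested. Their list median was -0.12 (range -0.51 to 0.24 on the log2 scale), and edgeR gave 0 of them an unadjusted p below 0.05. Their sums overlapped, at 634 to 831 CPM with control Ab and 649 to 685 CPM with anti-BAFF Ab. With log2 fold changes of -0.41 and -0.51, Cd209a and Siglech came near the -0.53 of H2-Ob. Cd209a, a lectin of some dendritic cells, was at 25.5 ± 6.56 and 19.3 ± 4.79 CPM, and Siglech, a plasmacytoid dendritic cell gene, at 4.72 ± 1.94 and 3.33 ± 0.232 CPM (SD, n = 4). Itgax, which macrophages of fat also express, led the list at 428 ± 99.8 and 416 ± 27.8 CPM (SD, n = 4). The part of these cells in the class II levels was not tested.

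**Figure D5:**
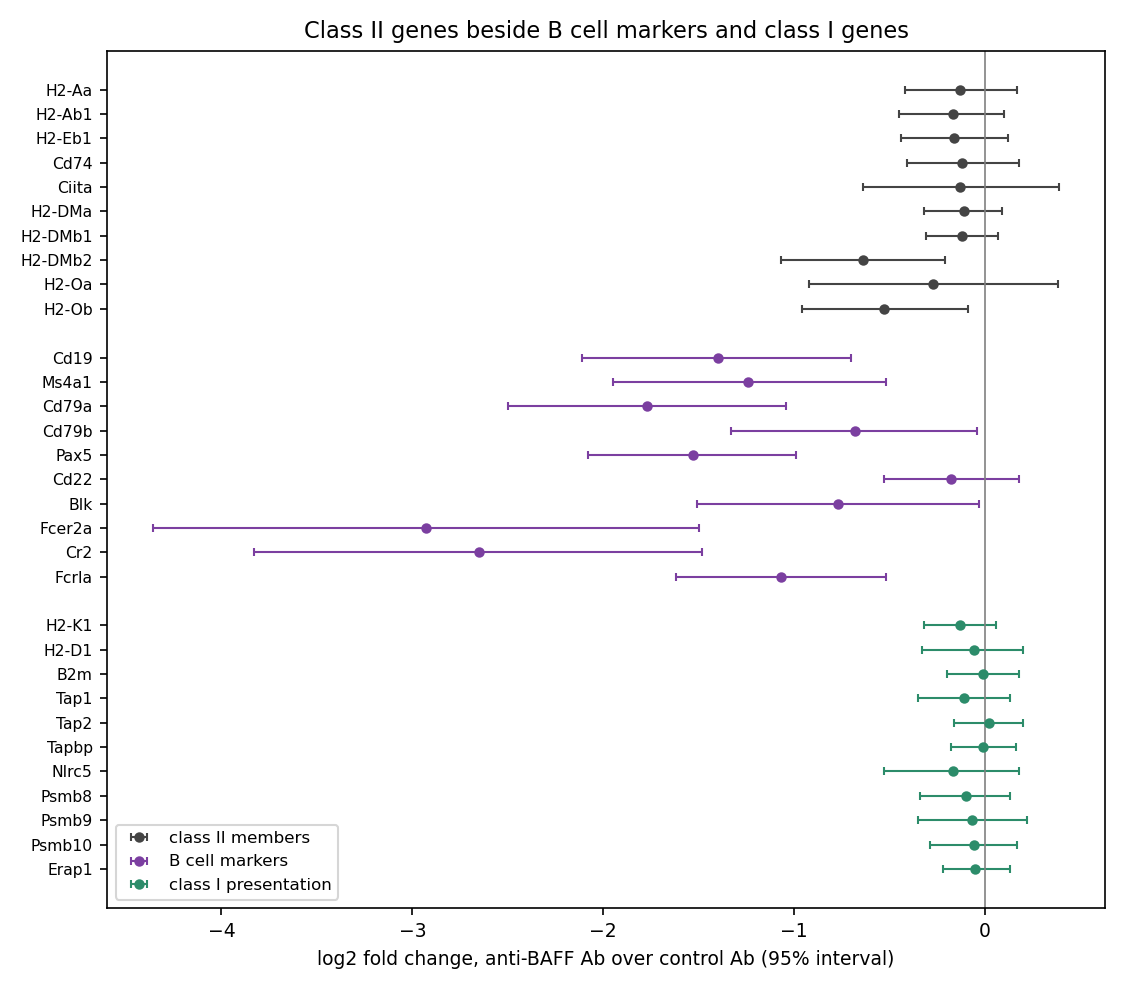
Log2 fold change (anti-BAFF Ab over control Ab) with its 95% interval from edgeR for the 10 class II genes, 10 B cell markers and 11 class I presentation genes. Chain and class I genes lie close to 0, most B cell markers lie near or beyond -1, and H2-DMb2 (-0.64) and H2-Ob (-0.53) lie between them. H2-Oa (-0.27) lies between as well, with an interval that includes 0.

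Factors that act on class II promoters were close to their control levels. Of 14 listed genes, 13 were tested, 3 had a log2 fold change below 0 and 10 above it, within -0.15 to 0.18, and 0 had an unadjusted p under 0.05. Rfx5 and Rfxap, subunits of the complex that binds the X box, had log2 fold changes of 0.10 and -0.15 (SE 0.11 for both). Nfyb, a subunit of the factor that binds the Y box, had the highest of the list at 0.18 (SE 0.18). Irf1, which takes part in the induction of Ciita by interferon gamma, was at 252 ± 29.4 CPM with control Ab and 236 ± 10.4 CPM with anti-BAFF Ab (SD, n = 4). Jak1, a kinase of the interferon receptors, was the most abundant at 425 ± 56.3 and 459 ± 85.6 CPM (SD, n = 4). Ifng itself, at 0.322 ± 0.190 and 0.415 ± 0.328 CPM (SD, n = 4), was below the filter and was not tested.

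The endosomal steps that prepare class II for peptide were likewise close to 0. All 12 genes of that list had log2 fold changes between -0.16 and 0.08 (median 0.01), 4 below 0 and 8 above, and 0 had an unadjusted p under 0.05. Ctss, the protease that trims the invariant chain, was at 1196 ± 344 CPM with control Ab and 1199.9 ± 75.9 CPM with anti-BAFF Ab (SD, n = 4). Ctsb, a lysosomal cysteine protease, was the most abundant at 6021 ± 1331 and 6365 ± 198 CPM (SD, n = 4). The cysteine protease inhibitor Cst3 was at 1045 ± 9.68 and 993 ± 74.5 CPM, and the protease Ctsh at 257 ± 38.4 and 246 ± 8.03 CPM (SD, n = 4). Marchf1 had the lowest fold change of the list, -0.16 on the log2 scale. The summed level of the list was highest in control Ab-treated mouse 1 (18529 CPM), while the other 7 mice lay between 12072 and 14976 CPM.

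Other genes of the class II locus were few. The I-E alpha pseudogene (H2-Ea-ps) had 0 counts in all 8 libraries, where 3 counts correspond to 0.165 to 0.219 CPM. H2-Eb2, a second I-E beta gene, was at 3.30 ± 0.901 CPM with control Ab and 2.29 ± 0.711 CPM with anti-BAFF Ab (SD, n = 4), and its log2 fold change was -0.53 (SE 0.29, edgeR unadjusted p = 0.0963). Brd2, a bromodomain gene that lies among the DM and DO genes but does not take part in presentation, had a log2 fold change of -0.08 with overlapping groups.

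MHC class I presentation, which every nucleated cell carries out, served as a comparison. Of 11 genes, 10 had a log2 fold change below 0, beside 48.5% of all genes tested, and 1 above it. They lay within -0.17 to 0.02 (median -0.06), and 0 had an unadjusted p under 0.05. H2-K1, a class I heavy chain, was at 1285 ± 70.1 CPM with control Ab and 1177 ± 37.9 CPM with anti-BAFF Ab (SD, n = 4), and the most abundant gene, H2-D1, was at 2240.2 ± 319 and 2142 ± 75.2 CPM. Nlrc5, the class I counterpart of Ciita, had the lowest fold change of the list, -0.17 on the log2 scale (SE 0.16). Tap1, a subunit of the peptide transporter, was at 67.0 ± 7.44 and 62.1 ± 6.74 CPM (SD, n = 4), and the log2 fold change of the immunoproteasome subunit Psmb8 was -0.10. The 6 costimulation genes lay between -0.05 and 0.15 (median 0.06), 2 below 0 and 4 above, with Cd86, a ligand of Cd28, the most abundant at 56.0 ± 16.5 and 59.0 ± 13.3 CPM (SD, n = 4). Cd40, a receptor through which T cells activate presenting cells, was at 20.8 ± 1.63 and 22.4 ± 4.19 CPM (SD, n = 4).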

How the data were processed

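Stromal vascular RNA of 8 mice was sequenced (paired-end) by a service laboratory. The authors deposited raw counts per gene with gene coordinates and lengths, the latter an other value in bases. The submitters' processing notes name the mm10 build. The aligner, counter and annotation are not given in the sources used here. Samples were grouped by title; mouse numbers differ between groups. Members and gene lists were chosen with earlier results of these data known. All members are named. The rule for each list was to name the genes lowest by unadjusted p (up to 4, or 3 of markers) and the most abundant. It was not followed in full: of the marker lists only B cell and dendritic cell genes are named, and Itgae, Icosl and Pdcd1lg2 are not. Ctss and Ifng were named beyond that rule, with values seen.

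Deposited counts were tested with edgeR 4.0.16 (R 4.3.3; filterByExpr with minimum count 10, TMM, glmQLFit, glmQLFTest) with treatment as the only term, and Benjamini-Hochberg adjustment over 15963 genes. Standard errors and 95% intervals were derived from the F statistic. Ratios of counts were compared with exact permutation tests (scipy 1.17.1) and a 95% interval from the pooled variance. The edgeR step was first run on simulated counts in which 200 genes changed by an absolute log2 fold change of 2. It recovered a median of 88.5% of them, and a median of 5.15% of its calls were false. Changes as small as those of the members were not simulated. Libraries of a group differed by more than sampling noise (lowest chi-square over its degrees of freedom 7.91). Totals were 13562340 to 18548024 counts, and intervals of single genes cover the spread between these mice. Alternatives were other normalizations, DESeq2 1.42.0, limma 3.58.1 after log2(FPKM + 1), robust dispersion fitting in edgeR, looser and stricter filters, immunoglobulin genes left out, 0.5 counts added to ratios, H2-DMa as denominator, and each mouse left out. Leaving out both mice with high epididymis genes, and the ratio of H2-DMb2 to H2-DMb1, were added after seeing the data. H2-Ea had no entry under that name in the deposited counts, and H2-Ea-ps was listed separately. Marchf1 and Marchf8 were matched by description, since their names in the table had been turned into dates.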

Additional observations from a re-analysis of the deposited data

Results flagged for a closer look

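Of 20 groups of 4 mice (10 members in both treatments), 1 held a mouse set apart from its group by Dixon's test, where chance gives about 1. It was H2-DMa in control Ab-treated mouse 6, at 91.3 CPM against 103 to 105 CPM in the other control Ab-treated mice. Without this mouse, H2-DMa and H2-DMb1 joined H2-DMb2 as members whose groups did not overlap. The margins were narrow, at 103 against 101 CPM for H2-DMa and 127 against 126 CPM for H2-DMb1. Leaving out the lowest control Ab-treated mouse makes such a separation easier, and its share over all genes tested was not computed.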

How the results depend on the processing

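The count of members past an adjusted p of 0.05 was 0 under each alternative run, mice left out included, and the lowest adjusted p of any member was 0.603 with all mice and 0.344 with a mouse left out. Apart from single mice left out, 100 of 100 member fold changes kept their direction and side of the threshold. These include the fold changes with both epididymis-high mice left out. With a mouse left out 79 of 80 did, the exception being Ciita, at 0.01 without control Ab-treated mouse 1. The number of members lower at an unadjusted p of 0.05 was 2 under all normalizations, tests and filters run. It ranged from 1 to 2 with a mouse left out and was 1 with both mice high in epididymis genes left out, where H2-DMb2 remained. The number without overlap ranged from 1 to 3 with a mouse left out (2 without control Ab-treated mouse 1 or anti-BAFF Ab-treated mouse 8, 3 without control Ab-treated mouse 6). Smaller groups separate more easily, and the share of all genes tested was not computed for them. The log2 ratio of H2-Ob to H2-Aa differed by -0.42 with H2-DMa as denominator (exact permutation test, two-sided, p = 0.0857); the cause was not tested. With both epididymis-high mice left out, it differed by -0.35 to H2-Aa and by -0.34 to Cd74, where the smallest p is 0.1 and no test was made. With a mouse left out the smallest p is 0.0571, and the differences ranged from -0.47 to -0.35 to H2-Aa, -0.44 to -0.29 to H2-Ab1, -0.44 to -0.32 to H2-Eb1 and -0.48 to -0.35 to Cd74. The H2-Oa differences ranged from -0.30 to -0.05, -0.26 to -0.02, -0.27 to -0.02 and -0.32 to -0.07 in the same order. That of H2-DMb2 to H2-DMb1 ranged from -0.60 to -0.40. No paired analysis was possible because the groups share no mouse numbers. Depth limits H2-Oa most, and then H2-DMb2 and H2-Ob.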
